A study of Mus musculus with 6 samples.

Results

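Interferon-stimulated genes are the genes that a cell turns on when interferon binds its receptors. The 38 described here were taken by symbol from a list of such genes that was chosen with earlier results of these data known. All 38 had a row in the deposited table of read counts from mouse bone marrow, where they make up 0.141% of the genes. They comprise signalling proteins and transcription factors (Stat2, Irf9, Irf7, Irf1), the modifier Isg15 and its protease Usp18, and the nucleic acid sensors Ifih1 and Zbp1. The rest include antiviral effectors that bind RNA, trap virus particles or attack pathogen membranes.

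Type I interferons signal through the receptor pair Ifnar1 and Ifnar2 and the kinases Jak1 and Tyk2. These phosphorylate Stat2, which with Irf9 is part of the complex ISGF3. ISGF3 binds the interferon-stimulated response element (ISRE) in promoters, whereas type II interferon acts through the gamma-activated site (GAS). Irf7 amplifies the response, since it is itself induced and drives more interferon. In bone marrow, interferon is known to act on blood stem cells and on myeloid and stromal cells.

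The study compared 3 libraries labelled Hes1 KO with 3 labelled wild type (WT), all given as bone marrow mesenchymal stromal cells of C57BL/6 mice. Hes1 is a transcriptional repressor downstream of Notch. According to the sample protocols, mice heterozygous for floxed Hes1 were crossed with Prx1Cre mice, in which the Prx1 promoter directs Cre to the mesenchyme of early limb buds and to part of the craniofacial mesenchyme, and were backcrossed repeatedly. The sample labels call the animals Hes1 knockout while these protocols name heterozygous floxed mice, and the sources used here state neither how many alleles were deleted nor whether the WT animals carried Cre. No drug treatment or age is given for any of the 6 samples, and the NFA treatment and resistant lines of the series text are carried by none. The labels do not say whether the libraries came from separate animals, so the p-values below measure spread among libraries, which may be technical.

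Sequences of promoters are shown first, because the ISRE is what ISGF3 reads. The RefSeq promoter windows of 300 bases (250 before and 50 after the start, build GRCm38.p6) matched 29 of the 38 members with 34 windows. Usp18, Zbp1, Oas2, Mx1, Mx2, Iigp1, Rtp4, Parp14 and Ifi27l2a had no entry. The ISRE core was searched as TTTC, any 2 bases and TTTC again (GAAA, any 2 bases and GAAA on the other strand), and the GAS core as TTCNNNGAA, which reads the same on both strands. Overlapping matches were all kept, and a window with both cores counts for each. The ISRE core stood in 19 of 34 member windows (55.9%), against 1131 of 32851 windows in the whole table (3.44%). The GAS core stood in 8 of 34 (23.5%), against 8.30% of all windows. A match describes letters and does not show a site in use. The stretches below run 5′ to 3′ on the gene's strand, with capitals for the cores of the motif that each group is shown for.

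The 4 members with an ISRE core that were highest in WT replicate 3 (values below) are Rsad2 (chr12:26456543-26456592, minus strand), Isg15 (chr4:156200855-156200916, minus strand), Ifit1 (chr19:34640765-34640833, plus strand) and Oas3 (chr5:120777705-120777754, minus strand). Capitals mark ISRE cores. Isg15 carries 3 overlapping cores, and Ifit1 carries 2 separate ones.
Rsad2: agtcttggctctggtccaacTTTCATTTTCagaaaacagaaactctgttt
Isg15: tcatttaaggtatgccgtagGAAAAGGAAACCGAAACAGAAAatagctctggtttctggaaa
Ifit1: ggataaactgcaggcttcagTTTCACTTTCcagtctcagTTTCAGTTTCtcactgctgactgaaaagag
Oas3: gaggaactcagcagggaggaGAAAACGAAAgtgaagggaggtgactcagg

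Ifit3 (chr19:34583353-34583436, plus strand), Ifit3b (chr19:34607749-34607832, plus strand) and Bst2 (chr8:71537567-71537622, minus strand) were instead higher in all 3 Hes1 KO libraries than in both deep WT libraries. Capitals again mark ISRE cores, and in Bst2 a GAS core overlaps their start. The printed stretches of Ifit3 and Ifit3b are identical, and 258 of the 260 bases that align between their 300-base windows match (99.2%).
Ifit3: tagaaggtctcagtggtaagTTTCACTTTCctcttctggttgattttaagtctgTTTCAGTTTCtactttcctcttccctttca
Ifit3b: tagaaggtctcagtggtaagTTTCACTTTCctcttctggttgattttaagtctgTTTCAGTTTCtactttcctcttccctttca
Bst2: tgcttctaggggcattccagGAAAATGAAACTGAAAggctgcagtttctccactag

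The GAS core, in capitals, is shown in Irf1 (chr11:53769904-53769952, plus strand), a transcription factor of the type II response, and in Gbp7 (chr3:142530210-142530277, plus strand), a guanylate-binding protein with 2 cores.
Irf1: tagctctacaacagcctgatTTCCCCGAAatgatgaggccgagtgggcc
Gbp7: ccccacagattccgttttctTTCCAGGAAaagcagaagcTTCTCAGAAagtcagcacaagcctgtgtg

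Cores stood in members of each pattern of levels. Of the 8 members with a window that were highest in WT replicate 3 in CPM, 4 had an ISRE core and 0 had a GAS core, and Irf7, Oasl2, Oasl1 and Xaf1 had no ISRE core in this window. All 4 of those with a window that were higher in the Hes1 KO libraries after TMM scaling (Ifit3, Ifit3b, Gbp3 and Bst2) had an ISRE core, as did 10 of the 17 remaining members. These groups rest on unlike scalings, plain CPM for the first and TMM-scaled CPM for the second. After TMM scaling WT replicate 3 was the highest for 26 members, most of these 17 among them. No test of these shares was made.

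**Figure D1:**
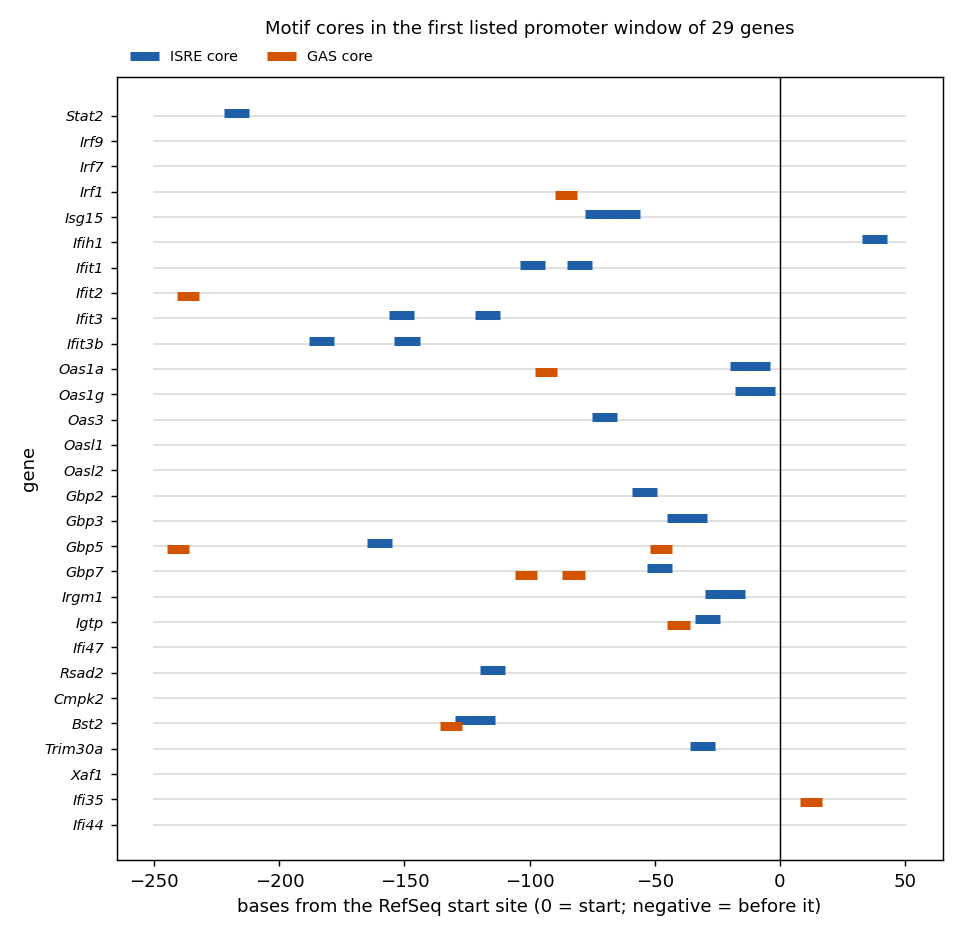
Positions of the ISRE and GAS cores in bases from the RefSeq start, with 1 line for the first listed promoter window of each of 29 members. Of these 29 windows 18 hold an ISRE core and 8 a GAS core.

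Depth differed widely between libraries. Hes1 KO libraries held 20563116 to 22131465 counts. WT replicate 1 held 66167, replicate 2 held 5812598 and replicate 3 held 12109170. In WT replicate 1 a single count was worth 15.1 CPM (counts scaled to the library's total), and it held 152 counts over all members, so its values are given apart and the main comparison below used the other 5 libraries, with all 6 beside it. The 10 leading genes of WT replicate 3 took 50.03% of its counts. The stromal label was poorly borne out by 17 stromal markers, which summed to 0.0085% to 0.0385% of counts in the 5 deep libraries, with Prrx1, whose promoter drives the Cre, at 0 to 2 counts in every library. Markers of erythroid cells and megakaryocytes (13 genes) made up 42.4% of WT replicate 3, 0 of WT replicate 1 and 0.0103% to 0.317% in the other 4, with 0 of the 13 detected in WT replicate 1 and 11 to 13 in the others. Neutrophil markers (15 genes) made up 4.90% to 13.4% of counts in the Hes1 KO libraries, against 1.53% in WT replicate 2 and 0.0364% in WT replicate 3, and all 15 were detected in each deep library. Monocyte and macrophage markers (16 genes) made up 1.47% to 2.46%, against 0.326% and 0.0270%. In WT replicate 1 neutrophil markers made up 1.01% and monocyte and macrophage markers 1.56%, the latter within the range of the Hes1 KO libraries. Among the 5 deep libraries the neutrophil and monocyte markers moved with the groups, and the erythroid ones with WT replicate 3. The part of these markers in the results on interferon-stimulated genes was not tested. In such bulk libraries, fewer cells of a type and less RNA per cell cannot be told apart.

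The targeted gene stood at 8.36, 10.4 and 12.4 CPM among Hes1 KO libraries and at 0, 53.3 and 28.5 CPM across WT replicates 1 to 3. Hes1 was thus lower in every Hes1 KO library than in both deep WT libraries, and WT replicate 1 had 0 of 66167 counts, which allows up to 45.3 CPM (3 counts). Hes1 fell by 2.55 on the log2 scale with 5 libraries (SE 0.31, adjusted p = 0.0294, edgeR with Benjamini-Hochberg adjustment). With 6 libraries the log2 fold change was -2.12 (SE 1.01) and the edgeR adjusted p (Benjamini-Hochberg) was 0.364.

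The deep WT libraries differed more from each other in the summed level of the 38 interferon-stimulated genes than the Hes1 KO libraries did. WT replicate 2 was the lowest of the 5 deep libraries for 21 members in CPM (55.3%, against 6.28% of all genes tested), while WT replicate 3 was the highest for 8 (21.1%, against 4.43%). The members summed to 1873, 1636 and 1500 CPM among the Hes1 KO libraries, to 943 CPM in WT replicate 2 and to 8281 CPM in WT replicate 3. Rsad2 alone made up 76.8% of that last sum, and without it the 5 sums were 1853, 1603, 1410, 938 and 1920 CPM. Without Rsad2 the WT replicate 3 sum was therefore close to that of Hes1 KO replicate 1 in plain CPM. Divided by the TMM factors, which are meant to offset the few genes that fill WT replicate 3, the sum without Rsad2 was 4318 TMM-scaled CPM there, against 1139 to 1521 in the Hes1 KO libraries and 687 in WT replicate 2.

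**Figure D2:**
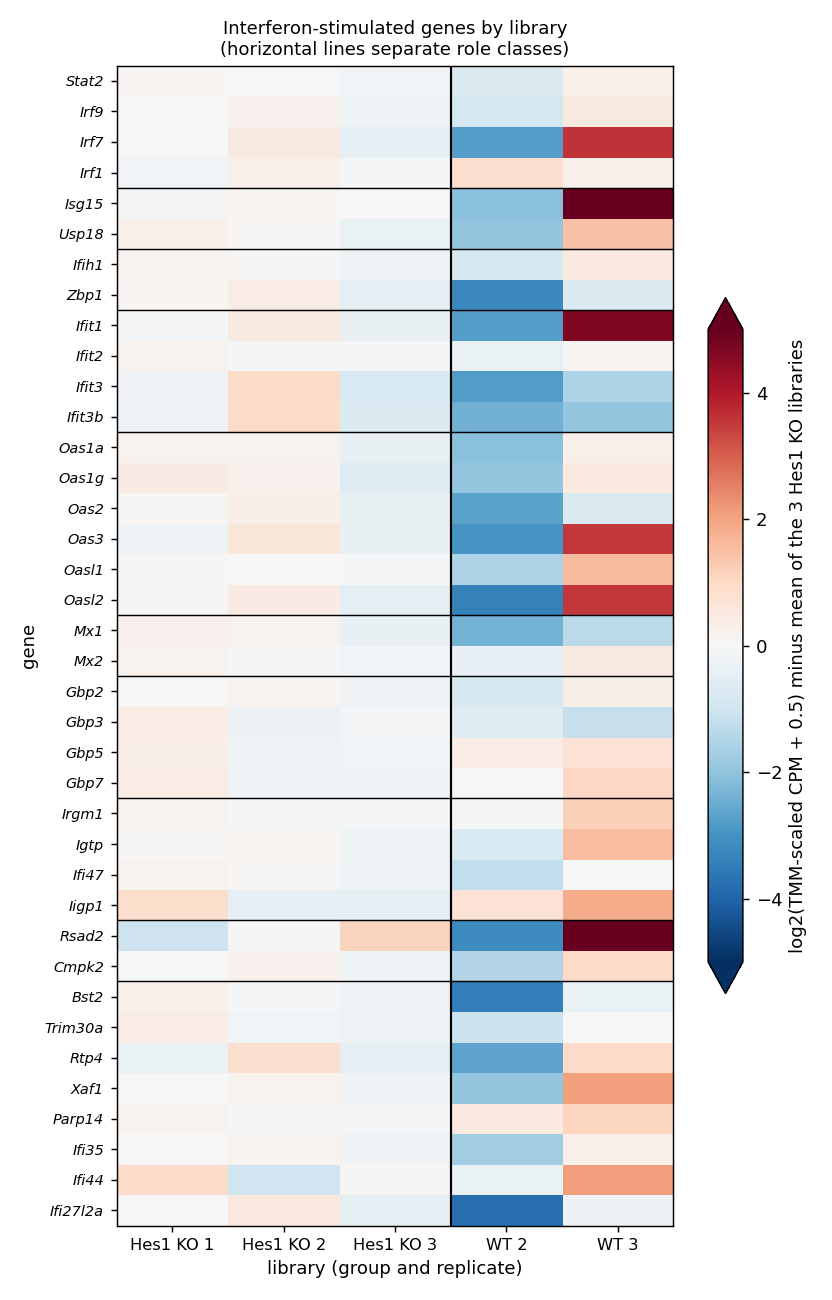
Levels of the 38 members in the 5 deep libraries, as log2(TMM-scaled CPM + 0.5) minus the mean of the 3 Hes1 KO libraries, ordered by role, with colours ending at 5 above and below. The column of WT replicate 3 holds the highest values for Rsad2, Isg15 and Ifit1, and the column of WT replicate 2 is low for most members.

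All 38 members passed the filter on low counts, and 1 of them, Mx1, passed the test with 5 libraries. That is 2.63% of the members, against 15.5% of the 16190 genes tested (7.44% higher and 8.09% lower), and 7 members against 39.8% of all genes had an unadjusted p under 0.05. Both shares of the members lay below those over all genes. Of the 38 log2 fold changes, 19 were above 0 and 19 below, with a median of -0.02, or 0.03 without Rsad2, against 0.02 over all genes. Scaling by library size alone moved the median of all genes to 0.44 and that of the members to 0.69, with no call among the members. With 6 libraries 0 members passed in edgeR, against 0.0% of the 14756 genes tested, and 6 had an unadjusted p under 0.05, against 14.9% of all genes. DESeq2 with 6 libraries called 0 members, against 5.51% of all genes (1.57% higher and 3.94% lower). DESeq2 with 5 libraries called 3 members higher (Ifit3, Ifit3b and Mx1) and 4 lower (Ifit1, Isg15, Parp14 and Rsad2), against 12.7% and 18.2% of all genes, or 30.9% in either direction. The 6-library median was -0.22, or -0.19 without Rsad2, against 0.03 over all genes.

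Levels were more often apart between the groups than called by the test, over all genes as among the members. In plain CPM 19 members (50%) were higher in all 3 Hes1 KO libraries than in WT replicates 2 and 3, against 35.1% of all genes, and 0 were lower, against 7.54% (42.6% of all genes in either direction). With WT replicate 1 included, 12 were higher, against 24.7% of all genes, and 0 lower, against 1.02% (25.7% in either direction). After TMM scaling 7 of the 38 were higher (Zbp1, Ifit3, Ifit3b, Oas2, Mx1, Gbp3 and Bst2), against 31.2% of all genes. Lower were 3 (Irf1, Gbp5 and Parp14), against 24.5% (55.7% in either direction). Both were smaller shares of the members than of all genes.

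**Figure D3:**
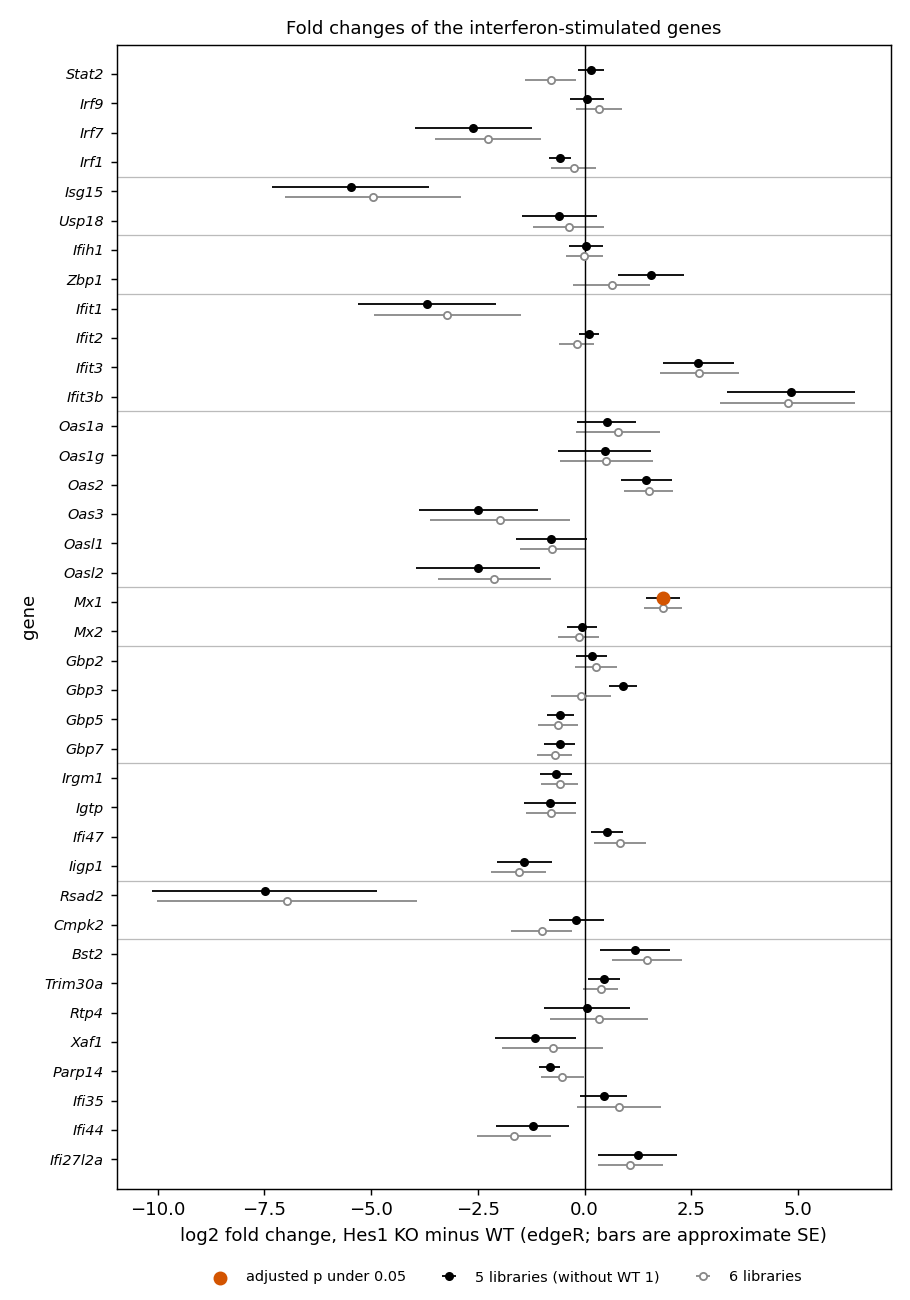
Log2 fold change of each member, Hes1 KO minus WT, with its SE as the bar, in the fits with 5 and 6 libraries. Mx1, at 1.83, passed with 5 libraries, and the widest bars are those of Rsad2, at -7.49 with 5 libraries.

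The Mx proteins are dynamin-like GTPases that in their functional form block incoming viruses. Read counts do not show whether the Mx1 or Mx2 protein of these mice is functional. Mx1 stood at 53.3, 42.8 and 34.9 CPM among the Hes1 KO libraries (43.7 ± 9.23, SD, n = 3) and at 15.1, 9.12 and 6.28 CPM across WT replicates 1 to 3. Every Hes1 KO library was above every WT library, although the value of WT replicate 1 is a single count. Mx1 rose by 1.83 on the log2 scale with 5 libraries (SE 0.40, adjusted p = 0.0407, edgeR with Benjamini-Hochberg adjustment). With 6 libraries the change was 1.83 (SE 0.44) and the edgeR adjusted p (Benjamini-Hochberg) was 0.31. The 5-library call rested on every Hes1 KO library: without replicate 1, 2 or 3, the edgeR adjusted p (Benjamini-Hochberg) was 0.147, 0.149 or 0.114, and no gene of the table passed. Its paralog Mx2 stood at 7.75 to 11.0 CPM among Hes1 KO libraries and at 7.57 and 4.62 CPM across WT replicates 2 and 3. The change of Mx2 was -0.07 with 5 libraries (SE 0.35) and did not pass. The transcripts of Mx1 share 4.77% of their 50-base words with those of Mx2 (GENCODE M21).

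Rsad2 encodes viperin, an enzyme that makes a chain-terminating nucleotide, and Cmpk2, its neighbour on the chromosome, encodes a nucleotide kinase. Rsad2 stood at 20.2, 32.6 and 89.2 CPM among Hes1 KO libraries and at 0, 4.47 and 6361 CPM across WT replicates 1 to 3. A single library thus held nearly all Rsad2 counts, 77028, against 26 in WT replicate 2. In WT replicate 3 it was the 15th most abundant gene by count, and in WT replicate 2 it ranked 11714. The log2 fold change with 5 libraries was -7.49 (SE 2.64, adjusted p = 0.097, edgeR with Benjamini-Hochberg adjustment) and did not pass, while DESeq2 gave an adjusted p of 0.00698. All 3 Hes1 KO libraries lay between WT replicate 2 and WT replicate 3. Cmpk2 levels were 90.5, 88.5 and 75.6 CPM among the Hes1 KO libraries, 469 CPM in WT replicate 1 (31 counts), and 34.6 and 62.3 CPM across WT replicates 2 and 3. All 3 Hes1 KO libraries were above both deep WT libraries in plain CPM. After TMM scaling Cmpk2 had the order of Rsad2, at 25.3 CPM in WT replicate 2, 61.0 to 84.0 in the Hes1 KO libraries and 140 in WT replicate 3, and its 5-library change was -0.20 (SE 0.64).

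**Figure D4:**
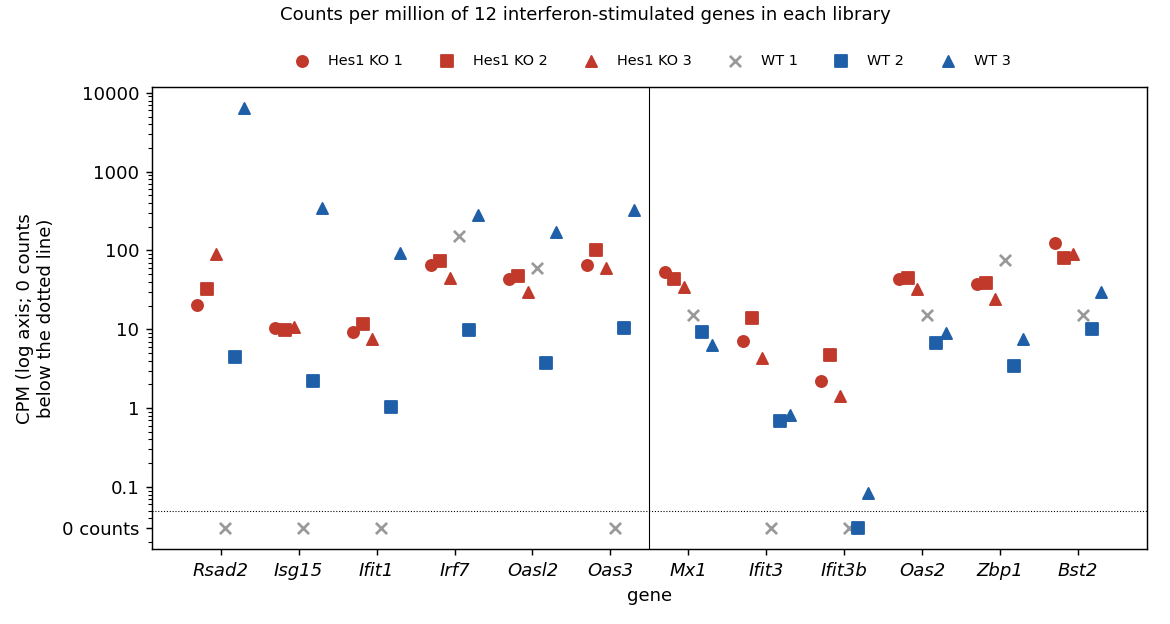
CPM of 12 members in each library on a log axis, with 0 counts drawn below the dotted line. WT replicate 3 reaches 6361 CPM for Rsad2 and 345 CPM for Isg15, while for Mx1 all 3 Hes1 KO libraries lie above both deep WT libraries.

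Among the signalling proteins, the amplifier Irf7 followed the same order as Rsad2. Irf7 stood at 65.7, 73.3 and 45.2 CPM among the Hes1 KO libraries, at 9.81 CPM in WT replicate 2 and at 282 CPM in WT replicate 3, with 10 counts (151 CPM) in WT replicate 1. The Hes1 KO values lay between the deep WT libraries, and the 5-library change was -2.60 (SE 1.37). Stat2 and Irf9, both parts of ISGF3, varied far less among the deep libraries. Stat2 stood at 88.0, 70.4 and 74.3 CPM against 393 (26 counts), 54.5 and 34.6 CPM across WT replicates 1 to 3. Irf9 stood at 103, 99.2 and 86.9 CPM against 45.3, 60.6 and 50.1 CPM. Both were higher in CPM in every Hes1 KO library than in the deep WT libraries, with 5-library changes after TMM scaling of 0.15 (SE 0.31) and 0.06 (SE 0.40). In TMM-scaled CPM, however, WT replicate 3 was the highest deep library for both. It stood at 77.8 against 60.0 to 69.7 in the Hes1 KO libraries for Stat2, and at 113 against 70.2 to 94.1 for Irf9. Irf1 stood at 95.1, 104 and 96.1 CPM against 60.5 (4 counts), 203 and 44.4 CPM, with a change of -0.57 (SE 0.26). Of the deep libraries, WT replicate 2 was the highest for Irf1.

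Isg15 is a ubiquitin-like protein that is joined to other proteins, and Usp18 removes it and also dampens the type I receptor. Isg15 was nearly level in the Hes1 KO libraries, at 10.4, 9.92 and 10.6 CPM, and stood at 0, 2.24 and 345 CPM across WT replicates 1 to 3. Its 5-library change was -5.47 (SE 1.84, adjusted p = 0.088, edgeR with Benjamini-Hochberg adjustment). The 3 Hes1 KO libraries agreed closely while the deep WT libraries differed 154-fold. Usp18 stood at 16.3 to 25.4 CPM among Hes1 KO libraries and at 5.33 and 20.9 CPM across WT replicates 2 and 3, with a change of -0.59 (SE 0.87).

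Ifih1 (MDA5) senses long double-stranded RNA, and Zbp1 senses Z-form nucleic acids and can trigger cell death. Ifih1 stood at 37.8, 30.1 and 29.2 CPM against 45.3 (3 counts), 20.8 and 17.0 CPM across WT replicates 1 to 3, with a 5-library change of 0.03 (SE 0.40). Zbp1 stood at 37.5, 38.2 and 24.5 CPM against 75.6 (5 counts), 3.44 and 7.51 CPM. Its change was 1.56 (SE 0.77) and did not pass, although the Hes1 KO libraries were above both deep WT libraries in plain and in TMM-scaled CPM.

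The IFIT proteins bind viral RNA, and the members of this family took opposite orders. Ifit1, Ifit3 and Ifit3b are given in full here, as are Oas2, Oas3 and Bst2 below, by a choice made after their values were seen. Ifit1 stood at 9.26, 11.8 and 7.59 CPM among Hes1 KO libraries and at 0, 1.03 and 94.1 CPM across WT replicates 1 to 3. Ifit3 stood at 7.0, 13.8 and 4.38 CPM and at 0, 0.688 and 0.826 CPM. For Ifit1 WT replicate 3 was above every Hes1 KO library, and for Ifit3 it was below every one. The 5-library changes were -3.69 (SE 1.62, adjusted p = 0.149) for Ifit1 and 2.66 (SE 0.83, adjusted p = 0.076) for Ifit3, by edgeR with Benjamini-Hochberg adjustment. Ifit3b had 49, 101 and 29 counts in the Hes1 KO libraries, 0 in WT replicates 1 and 2 and 1 in WT replicate 3. Its pooled CPM ratio of Hes1 KO to the deep WT libraries was 50.2, with an exact 95% interval for counting error of 8.90 to 1995, and its edgeR adjusted p (Benjamini-Hochberg) was 0.065. Ifit3 and Ifit3b are near copies, with 51.2% and 44.5% of their 50-base words shared, so the split of reads between them is uncertain. Ifit2 stood at 39.8, 27.4 and 32.6 CPM against 75.6 (5 counts), 30.3 and 13.3 CPM, with a change of 0.10 (SE 0.23).

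Active OAS enzymes make 2′-5′ oligoadenylate, which activates RNase L, and read counts do not show which members of this class are active. Oas3 and Oasl2 had the order of Rsad2. Oas3 stood at 65.3, 101 and 59.5 CPM among Hes1 KO libraries and at 0, 10.5 and 323 CPM across WT replicates 1 to 3. Oasl2 stood at 43.6, 46.9 and 29.9 CPM and at 60.5 (4 counts), 3.78 and 172 CPM. Oas2, the neighbour of Oas3 on the chromosome, did not have that order. Oas2 stood at 44.1, 44.5 and 32.4 CPM against 15.1 (1 count), 6.71 and 9.08 CPM, with a 5-library change of 1.44 (SE 0.60, adjusted p = 0.135, edgeR with Benjamini-Hochberg adjustment). Oasl1, the neighbour of Oasl2, stood at 6.99 to 8.49 CPM against 2.58 and 9.08 CPM across WT replicates 2 and 3, so that WT replicate 3 was again the highest. The near copies Oas1a and Oas1g, which share over 50% of their 50-base words, stood at 15.2 to 22.6 and 1.36 to 3.57 CPM among the Hes1 KO libraries. In WT replicates 2 and 3 they stood at 4.47 and 8.51 CPM (Oas1a) and 0.172 and 1.32 CPM (Oas1g), and neither passed.

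The guanylate-binding proteins and the immunity-related GTPases are the large interferon-inducible GTPases that act on pathogen vacuoles and are typical of the type II response. None of the 8 passed, and WT replicate 3 was the highest deep library for 0 of them in plain CPM and for 6 after TMM scaling. Gbp3 stood at 41.6, 21.2 and 29.4 CPM against 106 (7 counts), 22.4 and 4.87 CPM across WT replicates 1 to 3, with a 5-library change of 0.90 (SE 0.32, adjusted p = 0.098, edgeR with Benjamini-Hochberg adjustment). Gbp7 stood at 54.5, 30.8 and 36.9 CPM against 106 (7 counts), 44.7 and 30.6 CPM. For Gbp7 the groups overlapped. Irgm1, a regulator of the other GTPases, stood at 66.4, 45.4 and 52.8 CPM against 90.7 (6 counts), 58.0 and 46.3 CPM, with a change of -0.67 (SE 0.38). Igtp stood at 23.6, 20.8 and 18.9 CPM against 45.3 (3 counts), 14.1 and 23.3 CPM, with a change of -0.81 (SE 0.61). Gbp2, Gbp5, Ifi47 and Iigp1 had changes of 0.16, -0.57, 0.53 and -1.41.

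Of the remaining effectors, Bst2 (tetherin) holds budding virus at the cell surface and is also a marker of plasmacytoid dendritic cells. Bst2 stood at 125, 81.3 and 91.4 CPM among Hes1 KO libraries and at 15.1 (1 count), 9.98 and 29.5 CPM across WT replicates 1 to 3, with a 5-library change of 1.18 (SE 0.82). The 10 dendritic markers, Bst2 among them, summed to 0.0643% to 0.0968% of counts in the Hes1 KO libraries. In WT replicates 1 to 3 they summed to 0.106%, 0.0520% and 0.0406%, so WT replicate 1 was above every Hes1 KO library. The part of these markers in the value of Bst2 was not tested. Ifi27l2a stood at 130, 156 and 93.9 CPM against 106 (7 counts), 9.98 and 37.7 CPM, with a change of 1.24 (SE 0.92). Both genes were higher in every Hes1 KO library than in the deep WT libraries in CPM. After TMM scaling this held for Bst2 but not for Ifi27l2a, at 75.8 to 148 TMM-scaled CPM against 84.7 in WT replicate 3. Trim30a, a ubiquitin ligase family member, stood at 250, 148 and 161 CPM against 212 (14 counts), 99.4 and 68.8 CPM, with a change of 0.46 (SE 0.38). Parp14, an ADP-ribosyltransferase, stood at 89.6, 62.4 and 72.2 CPM against 60.5 (4 counts), 122 and 58.6 CPM. Parp14 had a change of -0.82 (SE 0.24, adjusted p = 0.069, edgeR with Benjamini-Hochberg adjustment), and in plain CPM its groups overlapped, with WT replicate 2 the highest of the deep libraries. Ifi44 stood at 10.3, 1.94 and 5.40 CPM against 45.3 (3 counts), 4.30 and 8.51 CPM. Rtp4, Xaf1 and Ifi35 had changes of 0.06, -1.15 and 0.44 and did not pass.

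WT replicate 1 gave little information on single members. It held a count for 27 of the 38, at most 31, with 17 members at 3 counts or more and 11 at 0. The 95% Wilson interval of its value lay above all 5 other libraries for Stat2 (268 to 576 CPM), Cmpk2 (330 to 665 CPM), Gbp3 (51.2 to 218 CPM) and Ifi44 (15.4 to 133 CPM). For the other 34 members the interval covered at least part of the range of the other libraries, and these intervals cover counting error only. Adding this library moved the change of Stat2 from 0.15 to -0.80, of Gbp3 from 0.90 to -0.08 and of Cmpk2 from -0.20 to -1.01.

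WT replicate 3 stood over 2-fold above the highest of the other 4 deep libraries in CPM for 6 members (15.8%, against 2.08% of all genes tested). These were Rsad2 (71.3-fold), Isg15 (32.5-fold), Ifit1 (8.0-fold), Irf7 (3.84-fold), Oasl2 (3.67-fold) and Oas3 (3.20-fold). It was also the lowest of the 5 for 14 members (36.8%, against 75.6% of all genes) in plain CPM. After TMM scaling it was the highest for 26 members (68.4%, against 24.6% of all genes) and the lowest for 1, Gbp3 (2.63%, against 28.5%). Where WT replicate 3 stood among the libraries thus depended on the scaling for many members. A further interferon-stimulated gene outside the 38, the exonuclease Isg20, was chosen after its value was seen. It stood at 1367 CPM in WT replicate 3 and at 8.99 to 19.8 CPM in the other 4. Isg20 was the extreme of its list, the other interferon-stimulated genes described below. Among its tested genes, WT replicate 3 stood over 2-fold above the other 4 in CPM for Isg20 alone. It was also the highest, by less, for Tgtp2, Herc6 and Ccl5, and was lowest or between for the rest. After TMM scaling WT replicate 3 was the highest for more genes of that list. Erythroid and megakaryocyte markers took 42.4% of counts in this library, and their part in these levels was not tested.

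The direction of the comparison depended on which deep WT library served as control. In the following values the same 3 Hes1 KO libraries are set against a single WT library, which is assumed to vary as the Hes1 KO libraries do. Against WT replicate 2 alone, 25 of the 38 members were called higher, against 17.1% of all genes, and 0 were called lower, against 18.4% (35.5% in either direction), with a median of 1.82 (1.81 without Rsad2) and 0.10 over all genes. Against WT replicate 3 alone, 2 were called higher (Gbp3 and Mx1), against 14.6% of all genes, and 14 lower, against 14.3% (29.0% in either direction), with a median of -0.48 with or without Rsad2 and 0.12 over all genes. The log2 fold changes against WT replicate 2 and against WT replicate 3 were 3.62 and -8.49 for Rsad2 and 2.44 and -6.47 for Isg15. They were 3.47 and -4.68 for Ifit1 and 2.91 and -3.58 for Irf7. These 4 genes changed sign with the control library, while Mx1 did not, at 2.5 and 1.40. Ifit3 stood at 3.90 and 1.99, Oas2 at 2.85 and 0.76, Zbp1 at 3.54 and 0.76 and Gbp3 at 0.67 and 1.23. The part of the markers named above, which also differ between these WT libraries, was not tested.

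**Figure D5:**
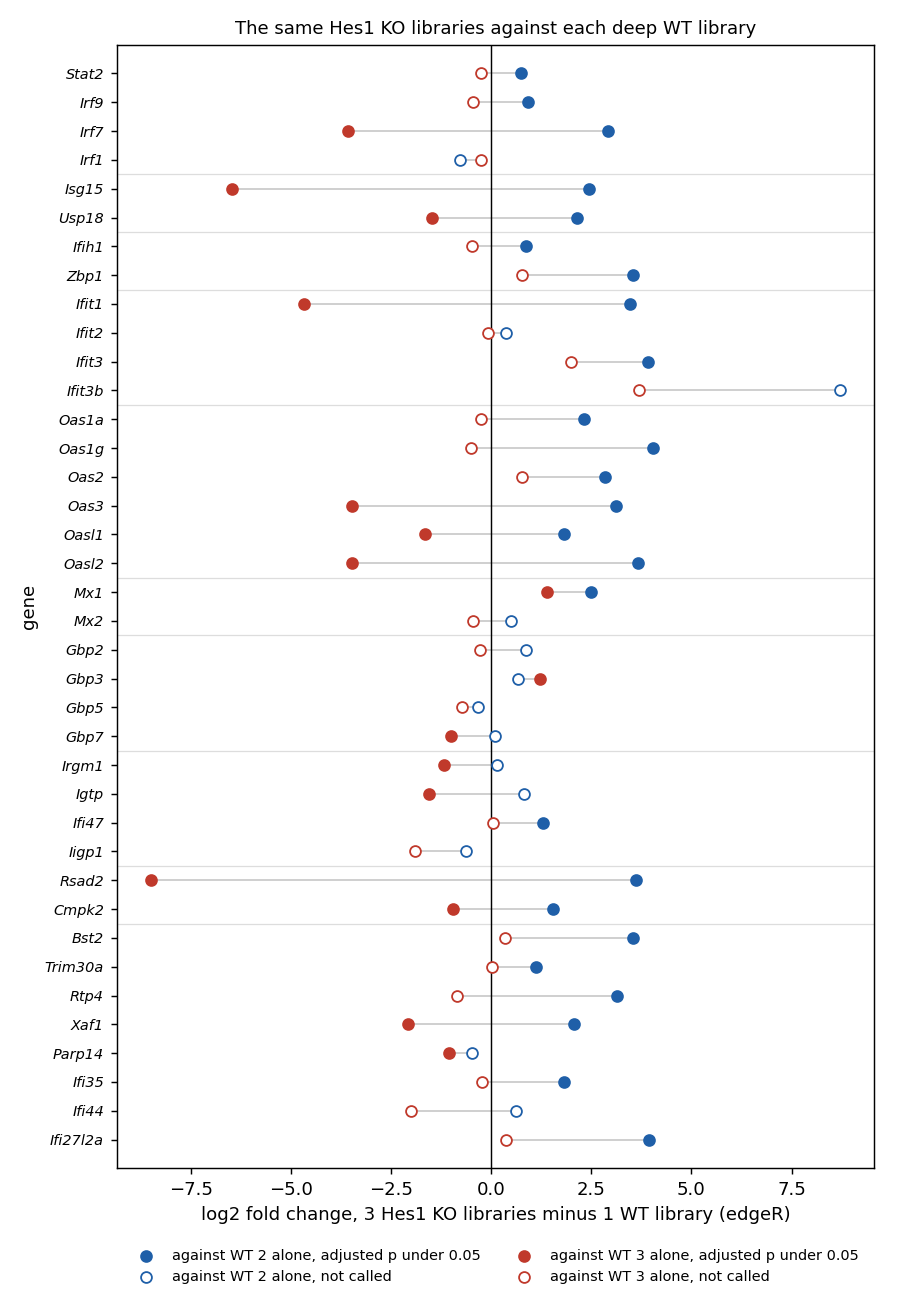
Log2 fold change of each member for the same 3 Hes1 KO libraries against WT replicate 2 alone and against WT replicate 3 alone, with filled points for an adjusted p under 0.05. Against WT replicate 2 most points lie above 0 and 25 are filled, against WT replicate 3 most lie below 0 and 16 are filled, and the value of Ifit3b against WT replicate 2, which had 0 counts, depends on the prior count of the fit.

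The rest of the pathway was examined through lists of its ligands, receptors, kinases, sensors and regulators and of other interferon-stimulated genes. With 5 libraries 12 of the 74 genes tested were called (16.2%), 9 higher and 3 lower, against 15.5% of all genes (7.44% higher and 8.09% lower), so the share lay near the background. The counts of single lists below are to be read against the same shares and the all-gene median of 0.02. Among 4 interferon ligand genes in the table, 1 was tested with 5 libraries, Ifng, with 7 to 14 counts in the Hes1 KO libraries and 0, 3 and 20 in WT replicates 1 to 3. Ifnb1 had 1 count in all, in a Hes1 KO library. No ligand gene had more than 20 counts in any library. Of 6 receptor genes, 1 (16.7%) was called higher and 0 lower (median change 0.67): Ifngr1, a chain of the type II receptor, at 206, 189 and 201 CPM against 0, 110 and 28.6 CPM across WT replicates 1 to 3. Ifngr1 rose by 1.22 on the log2 scale (SE 0.22, adjusted p = 0.0318, edgeR with Benjamini-Hochberg adjustment). Of 4 kinases and STATs described here, 1 (25.0%, against 15.5% of all genes) was called higher and 0 lower (median 0.30). This was Tyk2, the kinase bound to Ifnar1, at 132, 104 and 117 CPM against 136 (9 counts), 59.7 and 24.03 CPM, with a rise of 1.02 (SE 0.20).

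Upstream of interferon, 2 of 12 sensors and adaptors (16.7%, against 15.5% of all genes) were called higher and 0 lower (median 0.55). Tlr7, a receptor for single-stranded RNA in endosomes, stood at 29.6, 35.2 and 28.8 CPM against 0, 13.6 and 4.71 CPM and rose by 1.38 (SE 0.26). Myd88, its adaptor, stood at 79.7, 103 and 78.5 CPM against 60.5 (4 counts), 36.5 and 13.5 CPM and rose by 1.39 (SE 0.28). Both are abundant in myeloid cells. Neutrophil and monocyte markers were higher in the Hes1 KO libraries than in the deep WT libraries, as given above. Their part in the values of Tlr7 and Myd88 was not tested. Of 7 kinases and IRFs, 1 was called higher and 1 lower (28.6% in all, against 15.5% of all genes, median 0.25). Ikbke, a kinase that activates Irf3 and Irf7, stood at 69.0, 46.3 and 68.8 CPM against 60.5 (4 counts), 29.9 and 4.95 CPM and rose by 1.63 (SE 0.34). Irf4, a factor of lymphoid and dendritic cells, stood at 84.6, 62.4 and 149 CPM against 0, 830 and 182 CPM and fell by 2.63 on the log2 scale (SE 0.40). The 10 B cell markers summed to 0.0934% to 0.161% of counts in the Hes1 KO libraries. In WT replicates 1 to 3 they summed to 0.0242%, 0.556% and 0.288%, so WT replicate 1 was below every Hes1 KO library. The part of these markers in the value of Irf4 was not tested. Of 6 negative regulators, Ptpn6, a phosphatase of blood cells, was called higher and 0 lower (16.7%, against 15.5% of all genes, median -0.14), at 456, 548 and 468 CPM against 60.5 (4 counts), 160 and 64.2 CPM.

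A list of 39 other interferon-stimulated genes in the table had 38 tested, of which 3 were called higher and 2 lower (13.2%, against 15.5% of all genes, median 0.17). Ifitm2 and Ifitm3, membrane proteins that block virus entry, stood at 136, 196 and 127 CPM and at 280, 449 and 249 CPM among the Hes1 KO libraries. In WT replicates 1 to 3 they stood at 0, 48.5 and 14.2 CPM and at 0, 33.5 and 28.7 CPM. Both were higher in every Hes1 KO library than in both deep WT libraries, and they rose by 1.97 (SE 0.34) and 2.67 (SE 0.58) on the log2 scale. Slfn5, of the Schlafen family, stood at 126, 103 and 84.0 CPM against 30.2 (2 counts), 11.87 and 11.97 CPM and rose by 2.31 (SE 0.52). The guanylate-binding proteins Gbp4 and Gbp9 went the other way. Gbp9 stood at 24.4, 22.1 and 26.7 CPM against 30.2 (2 counts), 77.8 and 56.2 CPM and fell by 2.16 on the log2 scale (SE 0.34). Gbp4 stood at 13.1, 7.51 and 11.1 CPM against 0, 21.8 and 13.5 CPM and fell by 1.39 on the log2 scale (SE 0.34), a call that was lost against WT replicate 2 alone (adjusted p = 0.066, edgeR with Benjamini-Hochberg adjustment). All 12 pathway calls came from the 5-library fit (edgeR with Benjamini-Hochberg adjustment, adjusted p from 0.03 to 0.0494), and leaving out any single Hes1 KO library raised their adjusted p to between 0.108 and 0.151. With 6 libraries 0 pathway genes passed in edgeR.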

How the data were processed

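RNA from 6 samples (3 Hes1 KO, 3 WT, grouped by their titles) was sequenced after poly(A) selection, and the authors deposited 1 table of raw read counts, with 26988 genes named by symbol. Reads were counted by featureCounts (per the deposited table's own name), and GRCm39, edgeR and limma are named per the submitters' processing notes. The aligner, annotation and strand setting are not stated in the sources used here, so antisense reads cannot be told apart.

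Counts were tested with edgeR 4.0.16 in R 4.3.3 (filterByExpr, TMM, quasi-likelihood test with the legacy option off, Benjamini-Hochberg adjustment over all genes tested, threshold 0.05), once with 6 libraries and once with 5, without WT replicate 1. Standard errors are approximate (log2 fold change over the root of its F statistic). CPM are counts scaled to the library total, and TMM-scaled CPM are those divided by the TMM factor (5 libraries: 0.445 in WT replicate 3, 1.05 to 1.37 in the others). Total counts of 66167 to 22131465 set the precision, and intervals cover counting error only. The scripts were tested on simulated data.

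The members and lists were chosen with earlier results of these data known. Named in full were Hes1, members that passed, Rsad2, members with at least 3 counts in WT replicate 1 and the smallest p of any other role class, then pathway genes that passed. One gene of the pathway lists is not reported here. Alternatives were other scalings, no filter, DESeq2 1.42.0, limma-voom (limma 3.58.1), edgeR's legacy option, the replicate block and leaving out each library. Promoters came from RefSeq (GRCm38.p6) and shared words from GENCODE M21 transcripts. No GRCm39 coordinates are printed.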

Additional observations from a re-analysis of the deposited data

How the results depend on the processing

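A limit is the WT group, of which replicate 1 holds 66167 counts and the other 2 differ for most members. With 5 libraries, 1 member was called higher and 0 lower in the main test. The numbers higher were 0 with library size alone and 3 with DESeq2, which also called 4 lower (Ifit1, Isg15, Parp14 and Rsad2). Without 1 library at a time they ranged from 0 to 25 higher and from 0 to 14 lower. Without Hes1 KO replicate 1, 2 or 3 there were 0, without WT replicate 2 there were 2 higher and 14 lower, and without WT replicate 3 there were 25 higher. With 6 libraries, they ranged from 0 to 1 higher, the 1 without WT replicate 1. Without WT replicate 3 the changes against WT replicate 2 had the other sign than with 5 libraries for 15 members, of which 10 were called there though not with 5 libraries: Irf7 2.91, Isg15 2.44, Usp18 2.14, Ifit1 3.47, Oas3 3.13, Oasl1 1.81, Oasl2 3.67, Rsad2 3.62, Cmpk2 1.55 and Xaf1 2.08. Without WT replicate 2 the changes against WT replicate 3 were -3.58, -6.47, -1.47, -4.68, -3.47, -1.65, -3.49, -8.49, -0.95 and -2.07 in that order. No other setting gave a called member the other sign than the main fit of its own set, where 5-library and 6-library settings were each compared within themselves only. RLE size factors, no filter, limma-voom and the legacy option each left Mx1 as the 1 call with 5 libraries. Of all genes tested with 5 libraries, 2513 passed in the main test, 2430 with RLE size factors, 1913 without the filter, 1440 with limma-voom, 1710 with the legacy option, 4997 with DESeq2 and 0 with library size alone. With 6 libraries 0 passed in edgeR and 813 in DESeq2.

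The titles give both groups replicate numbers 1 to 3. With the replicate number as a block, 0 members and 0 of 16190 genes passed with 5 libraries, and the members' median was 0.12. Mx1 had a change of 1.80 there (adjusted p = 0.278, edgeR with Benjamini-Hochberg adjustment). The deviations of same-numbered libraries from their group means correlated at 0.153, 0.00704 and 0.244, and those of all other pairs at -0.197 to 0.0328. Replicates 1 and 3 of both groups thus correlated best with their own number, and replicate 2 of both groups did not. With so few libraries, and WT replicate 1 so shallow, these values cannot settle whether the numbers pair the samples. The labels state no pairing, so the main fits used none.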
